A study of Neodesmus pupukensis with 4 samples.

Results

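The 71 transcripts described here stood among the 200 with the highest RPKM in the 88 h library of a microalgal culture but not among the 200 highest of the 14 h library. RPKM is the read count scaled to the length of the sequence and to the library total. They are 71 of 14905 assembled sequences, or 0.476% of all, and come from 49 of 6216 components, a component being a set of sequences whose identifiers begin alike. They were chosen by the RPKM of the 88 h and 14 h libraries, so every value of those 2 libraries is a description and none is tested. The alga was the strain UTEX2341, labelled Neodesmus pupukensis in the samples and named Chlorella minutissima in the design text, grown fed-batch in shaken flasks at 25 °C. Whole cells were harvested at 4 culture times (14, 45, 57 and 88 h), each represented by 1 library of total RNA. The groups differ only in the labelled time, with no treatment or genotype named, and no label says whether 1 flask served all harvests. With 1 library per time there is no replicate check and no p-value. A trend over the 4 times was not run, because its end points chose the members. In what follows, 4 values in a row are always in order of culture time, earliest first.

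In a growing algal culture the most abundant messages usually serve translation, photosynthesis and carbon fixation. As cells crowd and nutrients run low, algae of this kind slow division and move carbon into storage compounds such as starch and oil, and the set of leading messages can change. The study's title concerns enzyme expression and lipid yield. The files give 0 of the sequences a gene name, so no function can be attached to any member, and members are described by level, course, length and component. No nucleotide sequence came with the files, and none is shown.

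The members held a small part of the transcript pool early and a larger part late. Their share of the summed RPKM was 2.3%, 3.75%, 11.5% and 10.6%. Their median RPKM was 216, 303, 773 and 736, while the median of all sequences was 10.3, 11.2, 5.38 and 5.52. The members' gain between the 45 h and 57 h libraries therefore went with a lower median in the library as a whole. The 129 sequences that were in both lists held far more, with 31.9%, 25.6%, 46.5% and 48.9% of the summed RPKM. The 71 that were in the 14 h list only held 8.64%, 9.75%, 2.4% and 2.14%. RPKM gives shares of a library: in RNA pooled from a culture, more transcript per cell and more cells carrying it cannot be told apart.

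**Figure D1:**
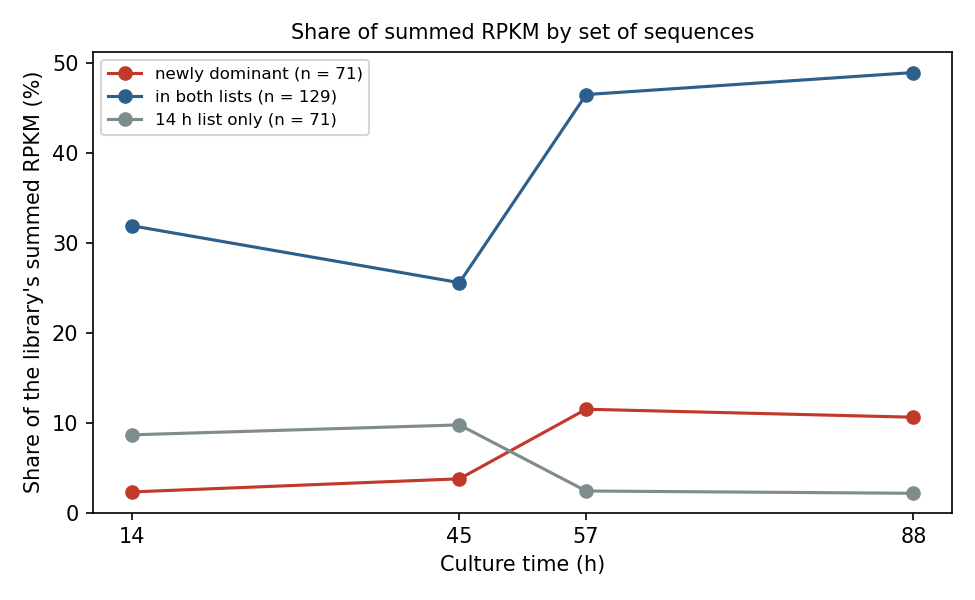
Share of each library's summed RPKM (%, y axis) against culture time (h, x axis) for the newly dominant sequences (red), those in both lists (blue) and those in the 14 h list only (grey); each point is 1 library. In order of time the newly dominant set lies at 2.3%, 3.75%, 11.5% and 10.6%.

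Membership ran from large shifts to narrow crossings of rank 200. At 14 h, 36 members were at ranks 201 to 400, 13 at ranks 401 to 1000 and 22 beyond rank 1000. At 88 h, 16 members had reached the first 100 ranks, the highest of them rank 41. A further 35 were between ranks 151 and 200. The lowest member at 88 h had an RPKM of 512.3 at rank 199, against 509.1 for the sequence at rank 201, just outside. The highest member at 14 h had 435.5 at rank 202, against 442.4 for the sequence at rank 200. In 10 members, from 7 components, the RPKM at 88 h was less than 2-fold that at 14 h. The word "dominant" holds in the sense of rank only. The 10 members with the highest RPKM held 33.7% of the members' summed RPKM at 88 h, and the highest member had 2939 RPKM there, against 19920.5 for the highest sequence of the library.

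Most members had reached the 200 highest by 57 h. At that time 62 of 71 were in the list, against 18 of 71 at 45 h, where at either time 1.34% of all sequences are by definition. All 18 that were in the list at 45 h were also in it at 57 h, 44 joined them there, and 9 were first in it at 88 h. The median rank was 398, 287, 149 and 150. The 45 h and 57 h libraries did not enter the choice of members. At 88 h against 57 h, though, few of all sequences differ by 2-fold (2.09% higher and 1.11% lower), so the count at 57 h is not independent of the choice.

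**Figure D2:**
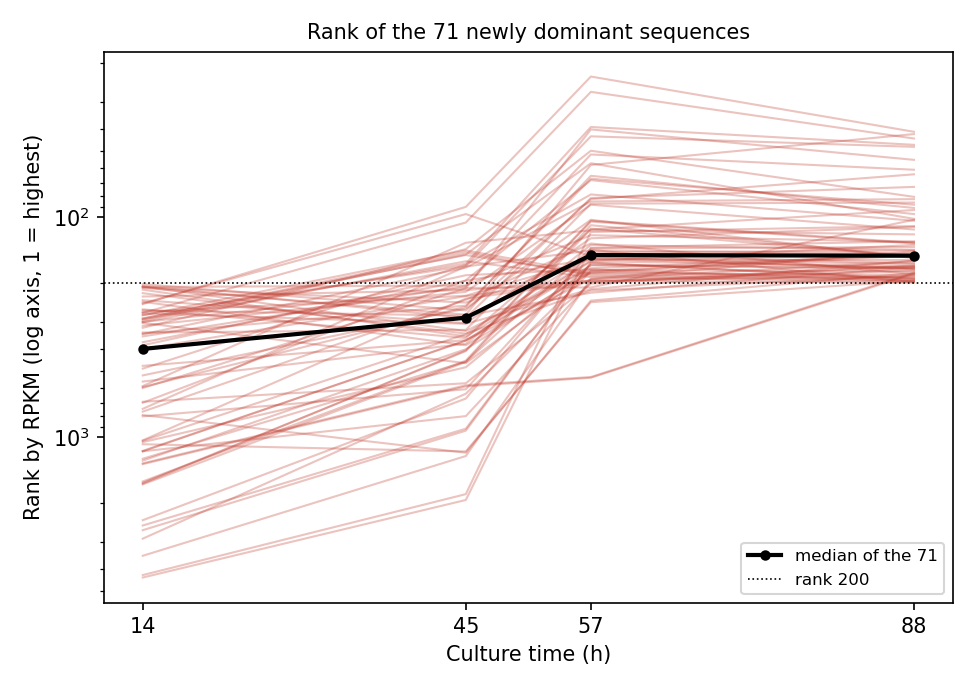
Rank by RPKM (y axis, log scale, 1 at the top) against culture time (h, x axis) of the 71 newly dominant sequences (red lines), their median (black) and rank 200 (dotted). The median lies at 398, 287, 149 and 150 in order of time, and the bundle crosses the dotted line mainly between 45 h and 57 h.

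At 57 h against 45 h, 53 of 71 members were higher by 2-fold or more and 0 were lower by as much. Neither library entered the choice, but each is close to one that did. Of all sequences, 13070 of 13502 were within 2-fold at 88 h against 57 h, and 11665 of 13920 at 45 h against 14 h. The ratio of 57 h to 45 h therefore largely restates the contrast of the choice, and it is given as a description. Among the 13963 sequences whose reads averaged 10 or more over this pair, 11.8% were higher and 41.6% lower by that amount. All 71 members were over this floor in every pair of libraries. The members' log2 ratio had a median of 1.89 and quartiles of 1 and 2.45, while the median of all sequences was -0.71. Relative to that median, 64 of 71 members were higher by 2-fold or more, beside 23.7% of all sequences. Without taking that median off, 31 members were higher by 4-fold or more, beside 3.15% of all. On the same unadjusted ratio, 68 members were higher by any amount, beside 30.2% of all. In all of these 68 the 95% counting interval of the ratio lay above 0, and in 1 further member it lay below. Of all 13963 sequences, it lay above 0 in 3106 and below in 8308. The smallest count of a member in either library was 852 reads. Counting error is thus small beside most of these ratios, but not beside the smallest of the 68, 0.10 (0.07 to 0.14). Variation between cultures was not measured.

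The sequences in both lists, which the choice did not require to be higher late, are given beside the members. They too had to be in the 88 h list, so they are not a comparison free of the choice. At 57 h against 45 h their log2 ratio had a median of 1.03 and quartiles of 0.72 and 1.17, and 72 of 129 were higher by 2-fold or more. The sequences of the 14 h list only had a median of -1.81. At 45 h against 14 h, 29 of 71 members were higher by 2-fold or more, beside 10.4% of 13920 sequences (16 of 49 with 1 member per component), and 0 were lower by as much, beside 5.81%. Higher by any amount were 56 of 71, beside 49% of all sequences, with a median log2 ratio of 0.98. Of the sequences in both lists, 16 of 129 were higher and the median was -0.60. The members were chosen for a rank below the list at 14 h, which by itself favours a ratio above 0.

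**Figure D3:**
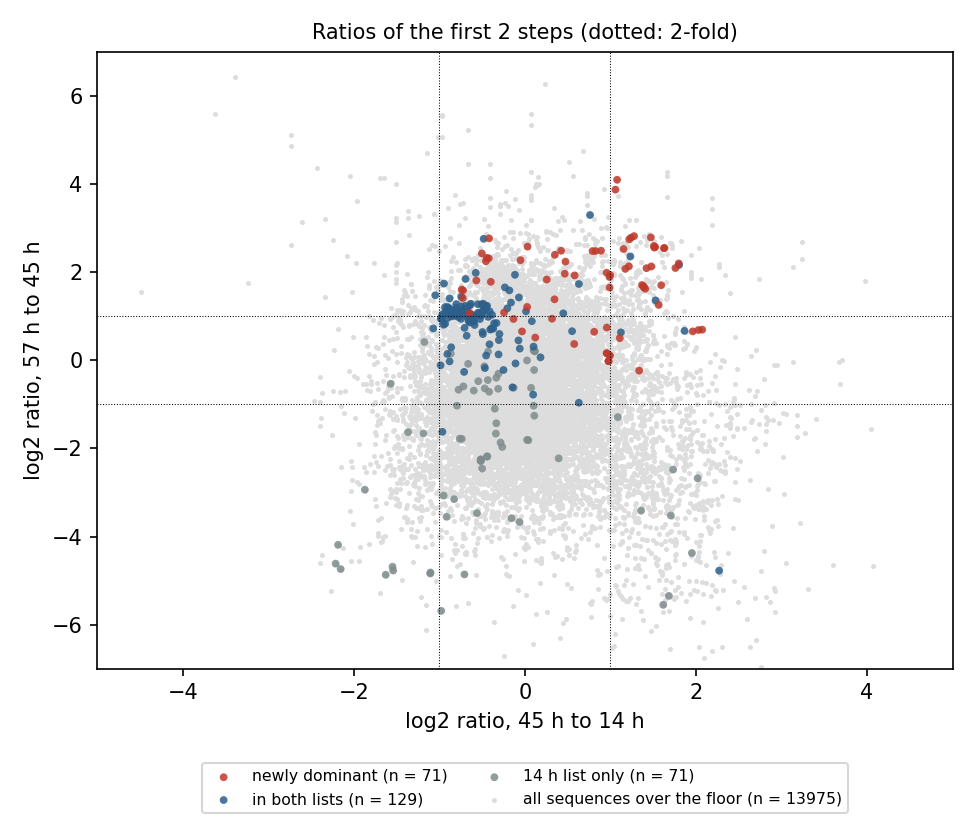
Log2 ratio of 45 h to 14 h (x axis) against log2 ratio of 57 h to 45 h (y axis) for the newly dominant sequences (red), those in both lists (blue), those in the 14 h list only (dark grey) and the 13975 sequences whose reads averaged 10 or more over the 4 libraries (light grey); dotted lines mark 2-fold, 3 light grey points lie outside the axes, and both axes share the 45 h library. Most of the blue points form a tight group near their medians of -0.60 and 1.03, while the red points spread over the upper part, with medians of 0.98 and 1.89.

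Sorted by the steps between libraries in which they were higher by 2-fold or more, the members followed 5 courses, and in every other step they were within 2-fold. The steps together span the 88 h to 14 h contrast that chose the members, so the choice itself favours courses with a rise. The share of all sequences on each course is given for scale, and no excess is read from it. The course with the most members, 29 from 24 components, was higher by that amount in the middle step alone, from 45 h to 57 h. Of all 13975 sequences whose reads averaged 10 or more over the 4 libraries, 9.52% followed this course. The median RPKM of these 29 members was 279, 262, 960 and 865. The member with the second highest RPKM at 88 h, comp222_c0_seq4, of 1837 bases, belongs here. Its RPKM was 415.6, 311, 2109.9 and 2927.1. For 57 h to 45 h the log2 ratio was 2.76 (95% counting interval 2.73 to 2.80), and it was lower at 45 h than at 14 h. A member of 1014 bases, alone in its component, was alike, with 429, 302.8, 1621.8 and 1892.9 RPKM.

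A second course, of 24 members from 13 components, was higher by 2-fold or more in both the first and the middle step, a course of 1.42% of all sequences. Their median RPKM was 81.6, 208, 950 and 832. They stood lower than the first group at 14 h and close to it from 57 h on. The member with the highest RPKM at 88 h, comp198_c0_seq21, of 1157 bases, followed this course, with 346.8, 929.2, 3944.1 and 2939 RPKM. Its log2 ratio was 1.42 (1.37 to 1.47) in the first step and 2.09 (2.06 to 2.11) in the middle one. It was thus highest at 57 h and lower at 88 h.

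The longest climb in rank was also within that course. A pair of members of 1 component, 2161 and 2136 bases long, stood at ranks 110 and 129 at 88 h, against ranks 4244 and 4355 at 14 h. The longer had 28.6, 60.3, 1028.2 and 1120.1 RPKM, and the shorter 27.5, 57.4, 837.9 and 911.2. At 57 h they were 17- and 14.6-fold above 45 h, the largest ratios of that step among the members. A member of 1017 bases, alone in its component, had a similar start at rank 3468, with 35.1, 85.1, 598.6 and 809.2 RPKM. A member of 3918 bases, also alone, had 151.5, 420.6, 2898.6 and 2346.7 RPKM.

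The other courses were smaller. In 5 members from 3 components the first step, from 14 h to 45 h, was the only one higher by 2-fold or more, a course of 2.5% of all sequences. One of them, comp401_c0_seq1, of 847 bases, had the lowest ratio of 57 h to 45 h of any member, with a log2 value of -0.24 (-0.28 to -0.19). Its RPKM was 353.7, 893.3, 758 and 583.2, so that it was highest at 45 h, the only member of which this holds. In 10 members from 7 components every step was within 2-fold, as in 40.4% of all sequences, and their median RPKM was 294, 429, 613 and 549. The 4 sequences of 1 component, 1540 to 1708 bases long, were among them.

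In 3 members from 2 components the last step, from 57 h to 88 h, was the only one higher by 2-fold or more, a course of 0.329% of all sequences. Both members of 1 of these components were level between 45 h and 57 h. The one with the lower ratio, comp1238_c0_seq2, of 2090 bases, had 79.4, 156.4, 153.8 and 554.9 RPKM. Its log2 ratio was -0.02 (-0.09 to 0.04) in the middle step and 1.85 (1.80 to 1.90) in the last. At rank 534 in the 57 h library, it and its partner at rank 538 were the farthest of all members from the list at that time. The third member, of 592 bases, had 283.1, 422.3, 544.8 and 1210.2 RPKM.

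**Figure D4:**
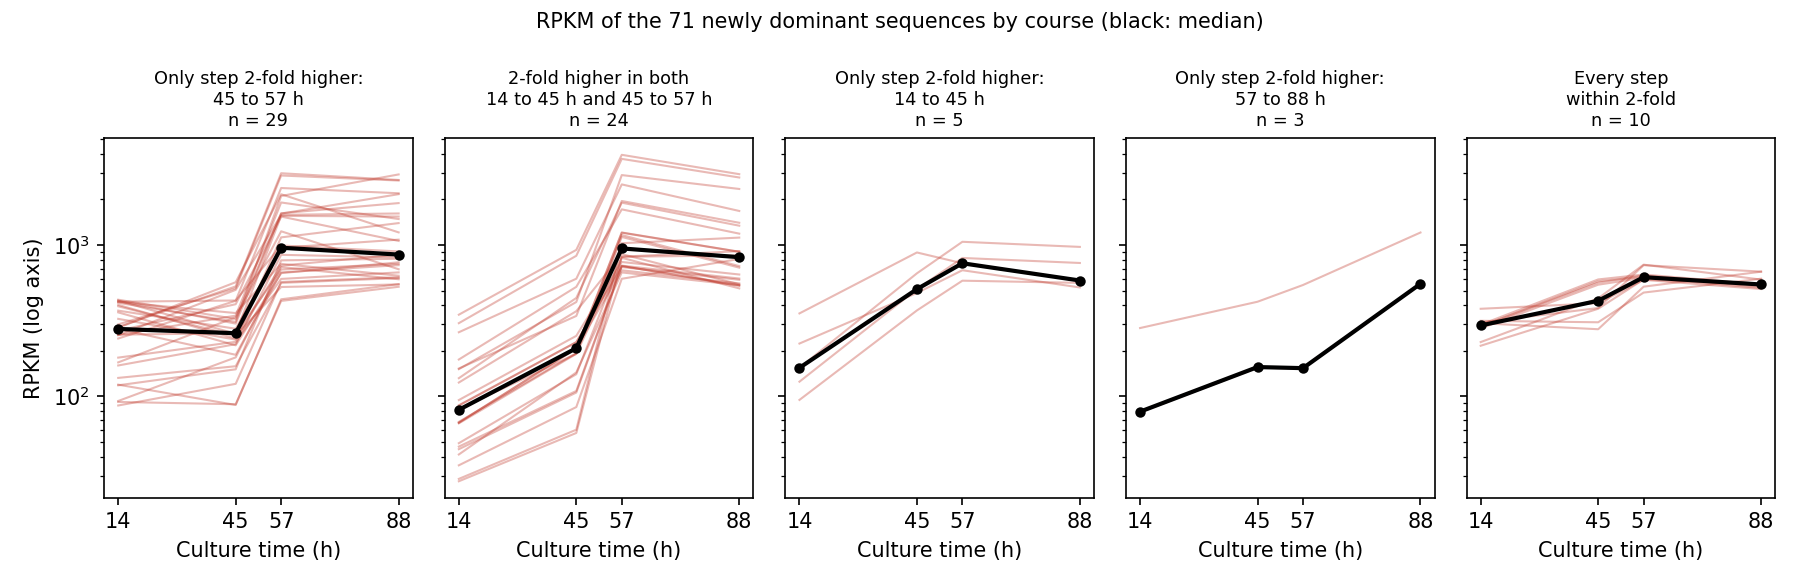
RPKM (y axis, log scale) against culture time (h, x axis) of the 71 newly dominant sequences, 1 red line each, split by which steps were higher by 2-fold or more, with the median of each panel in black. The 29 and 24 members of the first 2 panels share the steep step from 45 h to 57 h and differ in the first step; the other panels hold 5, 3 and 10 members.

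After 57 h few members differed much. At 88 h against 57 h, 3 of 71 were higher by 2-fold or more and 0 were lower by as much, beside 2.09% and 1.11% of 13502 sequences. At 88 h 26 members were higher, beside 42% of all sequences, and 45 of 71 were lower, beside 7832 of 13502. The median log2 ratio was -0.14 in the members and -0.07 in all sequences, so the members lay near the rest. The RPKM was highest at 45 h in 1 member, at 57 h in 44 and at 88 h in 26, beside 31.8%, 16.7% and 11.6% of all sequences. It was higher at each later time in 10 members, beside 4.63% of all. Both of these descriptions include the 14 h and 88 h values that chose the members. The choice itself favours a late maximum, so no excess over all sequences is read from them. For 88 h against 14 h, the contrast that chose the members, 61 were higher by 2-fold or more, beside 14.3% of 13934 sequences, and nothing is read from it. Relative to the median log2 ratio of all sequences in that contrast, -0.79, all 71 were higher by 2-fold or more, beside 26.2%.

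In 15 members, from 13 components and picked out after their values were seen, RPKM was lower at 45 h than at 14 h. Among all sequences over the floor 7103 of 13920 were lower, and among those in both lists 113 of 129. The choice of members by a rank outside the 14 h list disfavours a lower 45 h value, so no deficit is read from this. In 14 of the 15 members the counting interval of the ratio lay below 0. The median RPKM of the 15 members was 369, 259, 689 and 752. Of these, 13 followed the first course described and 2 the one with every step within 2-fold. Since they were picked for a low 45 h value and had to be in the 88 h list, their later ratios are not read further.

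Many members share a component, and such members may not be separate measurements. Of the 49 components, 37 gave 1 member each and 12 gave 2 to 4, together 34 members. Reads that match several sequences of a component may have been counted on each of them. For comp1238_c0_seq2 the counts were 2073, 3881, 3900 and 14007 reads, and for its partner, of 2104 bases, they were 2067, 3873, 3899 and 14006. In 2 of the 12 components the members' RPKM stayed within 1.1-fold in every library, and in 11 within 2-fold. The members of a component differed in the log2 ratio of 57 h to 45 h by 0.45 at most, with a median range of 0.04. Taking 1 member per component, 37 of 49 were higher at 57 h by 2-fold or more, beside 11.8% of all sequences. That share was not reduced to 1 sequence per component.

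Of the 49 components, 2 already had a sequence in the 14 h list. They hold 5 members, including both with the highest RPKM at 88 h. In the component of comp198_c0_seq21, which has 26 sequences, the one in both lists was 693 bases long and had 8957.6 RPKM at 88 h, against 806 at 14 h. That of comp222_c0_seq4 has 4 sequences, of which those of 2760 and 2613 bases were in both lists. The log2 ratios of 57 h to 45 h were 2.76 and 2.31 in the 2 members of this component, against 1.18 and 1.58 in those sequences. The remaining 47 components had no sequence in the 14 h list.

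The components of the members hold 34 further sequences. At 57 h against 45 h, 26 of them were higher and 2 lower by 2-fold or more, beside 11.8% and 41.6% of all sequences, with a median log2 ratio of 1.28. The component of 26 sequences supplies 23 of the 34 and 18 of the 26 that were higher, and its sequences may share reads. Both lower ones belong to it too and are 2022 and 2115 bases long. Their log2 ratios were -1.98 and -2.06, against 2.09 to 2.13 for the 3 members of that component. The first had 26.9, 44.1, 11.2 and 12.5 RPKM.

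**Figure D5:**
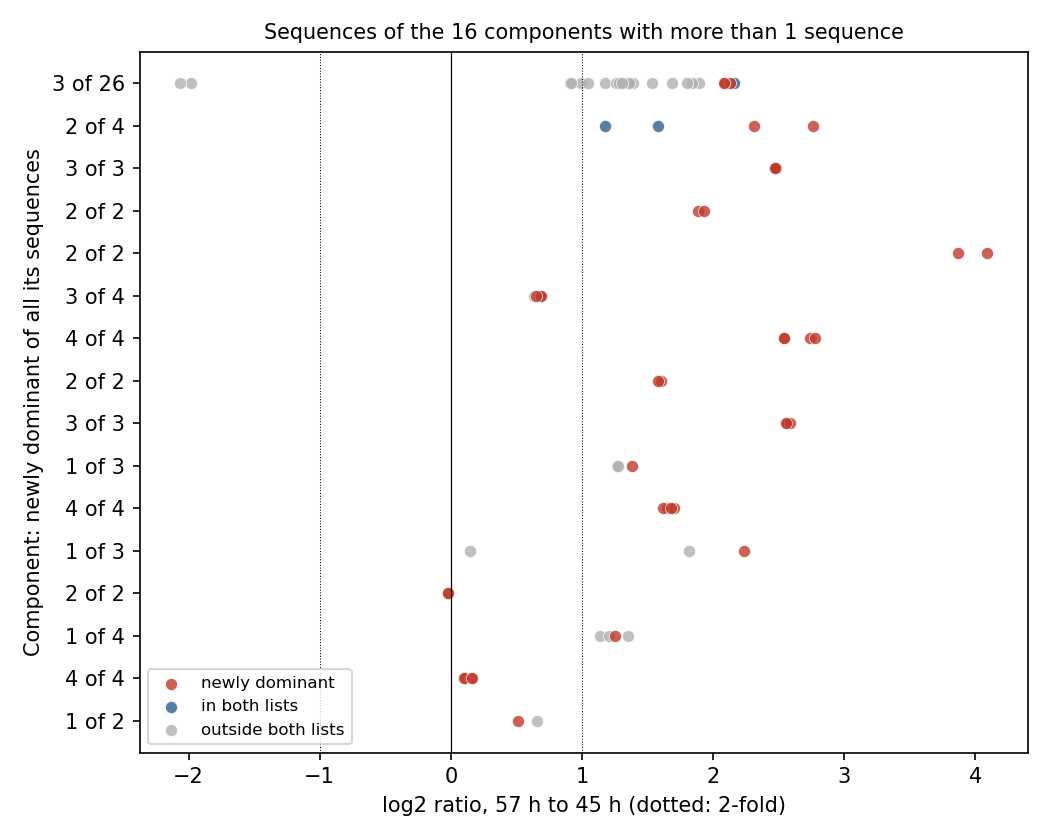
Log2 ratio of 57 h to 45 h (x axis, dotted lines at 2-fold) of every sequence in the 16 components that have a newly dominant sequence and more than 1 sequence, 1 row each, labelled with the newly dominant of all its sequences and ordered from the top by the highest RPKM of a newly dominant sequence at 88 h. Red, blue and grey points are newly dominant, in both lists and in neither; the widest row is the first, where 2 grey points lie near -2 and the red ones at 2.09 to 2.13.

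The members were shorter than most sequences of the assembly, as were the other abundant sequences. Their median length was 1540 bases, with quartiles of 916.5 and 2045, against 1077 bases for the sequences in both lists, 1598 for those in the 14 h list only and 2270 for all. Length enters RPKM as a divisor, so a list ranked by RPKM is not independent of it. Of the members, 46.5% were the only sequence of their component, against 25.1% of all sequences. These 33 had a median length of 1075 bases and a median log2 ratio of 57 h to 45 h of 1.83. The 38 from larger components had 1688.5 bases and 1.91.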

How the data were processed

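RNA sequencing of 4 libraries was analysed, 1 per culture time. The read counts per sequence and the RPKM values are as the authors deposited them. Per the file headers, each file also gives the sequence length and the library total by which RPKM was scaled, which ranged from 11874560 to 12495251 reads. RPKM recomputed from these columns differed by at most 3.8e-11. The counts sum to 1.27 to 1.36 times the totals, and the files do not say why. BWA is named per the submitters' processing notes with no version. The assembler, the handling of shared reads and strandedness were likewise not given in the sources used here.

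Sequences were ranked by RPKM, ties in file order, with 1 sequence at the 200th value of either library. The log2 ratio was that of reads plus 0.5 over the deposited library total, counted at 2-fold with a floor of 10 reads on average over the pair. Intervals are exact conditional binomial (Clopper-Pearson) at 95% and cover counting error only; reads that are PCR copies or shared make them too narrow. Ratio, interval and ranking steps were checked on simulated counts with planted changes and counting error only. Shared reads and variation between cultures were not simulated, so the check covers the calculation and not those. The members and subsets were chosen with earlier results of these data known. The identifiers named are the 2 members with the highest RPKM at 88 h and the 2 whose ratio of 57 h to 45 h was lowest, if below 0. Members described by length alone were picked after their values were seen. Alternatives were other list lengths, ranking by counts, other scalings (edgeR's TMM, median of ratios, sum of counts), pseudocount, floor, a counting-interval rule and 1 sequence per component. TMM used edgeR 4.0.16 under R 4.3.3. The rest ran in Python 3.11.15 with scipy 1.17.1, pandas 2.3.3, numpy 2.4.6 and, for plots, matplotlib 3.10.9.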

Additional observations from a re-analysis of the deposited data

How the results depend on the processing

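The list depends on how it is drawn. With the 100 highest of each library there were 28 such sequences, of which 16 are among the 71. With the 400 highest there were 172, of which 35 are. Ranking by read counts gave 75, of which 41 are among the 71, and 1 sequence per component before ranking gave 63, of which 39 are. The counting interval lay past both limits for 68 of the 71. The number of members at least 2-fold higher at 57 h than at 45 h, reported as 53, was 52 to 64 under the other scalings, pseudocount, floor and interval rule, and 37 of 49 with 1 member per component. For 45 h against 14 h, reported as 29, it was 27 to 34, and 16 of 49. All members are over the floor, so its removal could change nothing. Taking 1 member per component, 10 of 49 were in the 200 highest at 45 h and 41 of 49 at 57 h, beside 1.34% of all sequences. With lists of 100, 5 of the 28 were in the 100 highest at 45 h and 26 at 57 h. With lists of 400, 29 of the 172 were in the 400 highest at 45 h and 147 at 57 h. For 57 h against 45 h the members' median log2 ratio was 2.59 under TMM and also under median-of-ratios scaling, both of which place the median of all sequences near 0. It was 1.83 with 1 member per component. For the 28 sequences from lists of 100, a partly different set, the median was 2.14. For the 172 from lists of 400, a mostly different set, it was 1.60. At 14, 45, 57 and 88 h, 1 member per component had 2.26%, 3.38%, 9.72% and 9.08% of a reduced RPKM sum. That sum took from every component its sequence with the most reads. In some components this sequence was not the member, so the values are not strict shares. Of the full summed RPKM, the 28 sequences from lists of 100 held 1.99%, 3.02%, 10.9% and 9.75%. The 172 from lists of 400 held 2.46%, 4.16%, 11.2% and 10.3%. These are other sets, so their shares do not show that the share of the 71 is stable. No paired analysis was possible because replicates are lacking, and for the same reason no library could be left out.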
